A study of Mus musculus with 12 samples.

Results

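The genes described here encode plasma proteins that the liver secretes: carriers, protease inhibitors, coagulation and fibrinolysis factors, the fibrinogen chains and acute-phase proteins. They were chosen by symbol from the authors' table of GFP(+) liver cells, and all 39 were found among its 16971 genes. The cells came by FACS from the nonparenchymal liver fraction of C57BL/6 mice (knock-in from C57BL/6N, reporter from C57BL/6J) of the genotype Prom1CreERT2-nLacZ/+;Rosa26Lsl-GFP/+, in which tamoxifen turns on GFP in Prom1-expressing cells and in all their later progeny. All mice received tamoxifen at 6 weeks of age and 7 days before surgery, the day 0 mice included. The BDL mice were therefore older and further from tamoxifen when collected. The samples include no sham group of day 3 or day 14. The table compares day 0 with day 3 and day 14 after bile duct ligation (BDL), a surgery that keeps bile from leaving the liver. The labels call the day 0 mice sham, and the study's text describes them as mice taken before BDL. The table rests on 3 day 0, 3 BDL day 3 and 4 BDL day 14 libraries, while the labels describe 6 libraries of BDL day 14, of which the authors left 2 out for too few reads. All groups carry a single copy of the *Prom1* knock-in allele, GFP is driven by the Rosa26 locus after recombination, and the mix of males and females differed between the groups.

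Plasma proteins are made and secreted mainly by hepatocytes, which release albumin, the coagulation factors and the protease inhibitors all the time. In the acute-phase response, inflammatory cytokines such as IL-6 and IL-1 act on hepatocytes through STAT3, C/EBP factors and NF-kB and raise a subset of them, such as serum amyloid A, haptoglobin, orosomucoid and fibrinogen. Some of the products are also made outside hepatocytes, for example lipocalin 2 in neutrophils and the coagulation factors VII and X, which macrophages can make. Following that division, 12 members were treated as acute-phase (*Saa1*, *Saa2*, *Saa3*, *Orm1*, *Orm2*, *Hp*, *Hpx*, *Lcn2*, *Serpina3n*, *Fga*, *Fgb* and *Fgg*) and the other 27 as constitutive. Constitutive here means only that a gene is not among those 12, and *Itih3* and *Itih4* were also tried in the acute-phase class.

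Each value is the authors' mean of a group, in counts scaled by the authors to the upper quartile of each library. The table holds no value for a named library, so there is no SD and no test between groups, and a gene is called here by size alone, as higher or lower where its group means differ by more than 1.5-fold. Of all the genes, 12891 had normalized counts that summed to at least 10 over the 10 libraries and were kept, among them all 39 members. The count of the highest library of each gene is deposited without the library's name, and it could be placed in a group where the other groups summed to less than that count. The gap between the geometric and the group means gave a further number per gene, an implied spread between libraries on the log2 scale, which is a rough value shared by the groups. The files give no sequencing depth, and counting error therefore stays unknown.

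The plasma protein transcripts were lower after BDL almost throughout. On BDL day 3, 37 of the 39 members were lower than on day 0 and 0 were higher, against 29.2% of all kept genes lower and 19.2% higher. The median log2 ratio of the members was -1.93, where that of all kept genes was -0.02. On BDL day 14, 36 members were lower and 2 were higher, against 28.8% and 21.2% of all kept genes, and the median log2 ratio was -2.71 against -0.04. The coagulation factor genes *F7* and *F10*, both within 1.5-fold of day 0 on BDL day 3, were the 2 members higher on BDL day 14, and *Serpina3n* was the 1 member within 1.5-fold of day 0. Lower at both times were 36 of 39 members and 19% of all kept genes. In these bulk samples, fewer cells that make plasma proteins and less of their RNA per cell cannot be told apart.

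**Figure D1:**
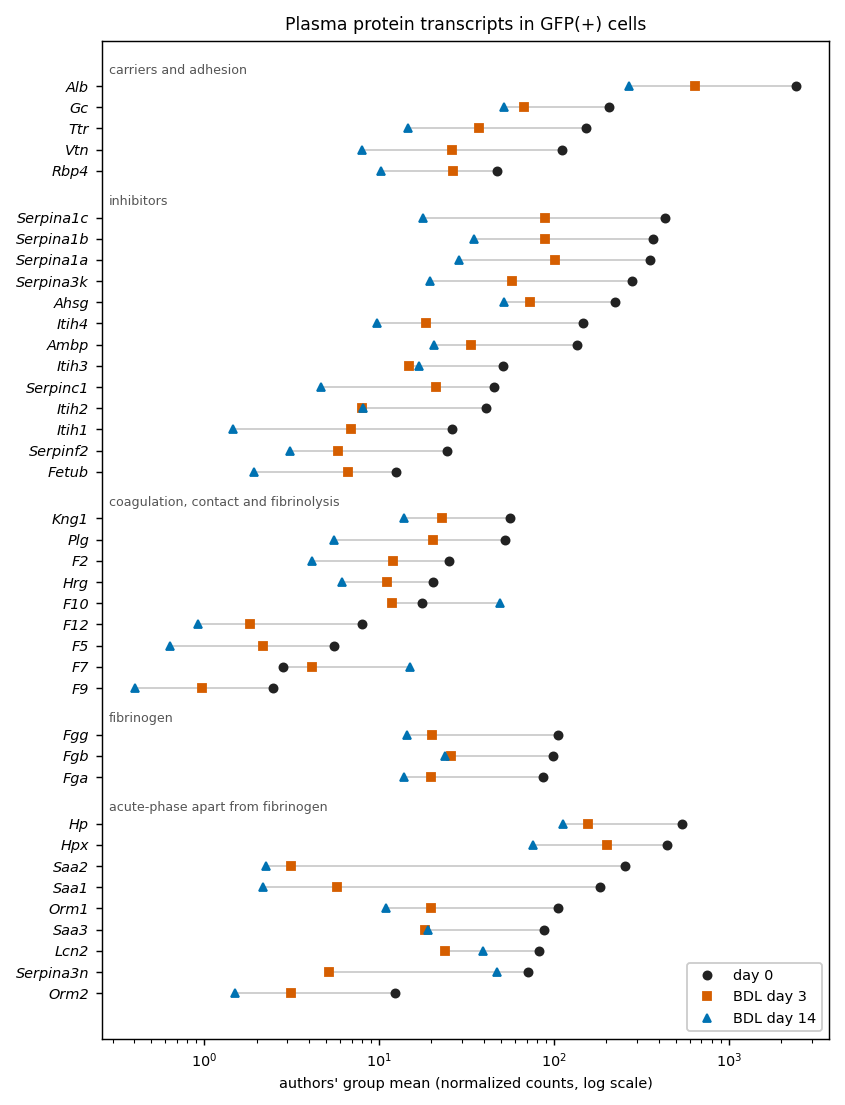
Group means of the 39 plasma protein genes (x axis, normalized counts on a log scale) on day 0 (black circles), BDL day 3 (orange squares) and BDL day 14 (blue triangles), grouped by role. Day 0 is the highest point for every member but *F7* and *F10*, and the BDL day 14 mean of *Serpina3n* (47.7) lies far above its BDL day 3 mean (5.16).

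Counted with the size of the implied spread as well, 19 members were lower on BDL day 3 by more than 1.5-fold and by more than 2 implied spreads and 0 were higher, against 10.9% and 8.7% of all kept genes. On BDL day 14 this stricter count was 32 lower and 1 higher (*F7*), against 12% and 9.67%. For a few members the table is enough to order every library. All day 0 libraries of *Alb*, *Ttr* and *Itih2* lay above all BDL day 3 libraries, an order found for 1.37% of all kept genes. All day 0 libraries of *Alb*, *Ttr*, *Itih2*, *Serpina1a* and *Serpina1c* lay above all BDL day 14 libraries, against 1.18% of all kept genes. The opposite order to day 0 was found for 0 members at either time (0.0465% of all kept genes at each), and between BDL day 14 and BDL day 3 no member could be ordered in every library (0.0776% of all kept genes higher and 0.109% lower). For the other members the deposited values do not settle whether libraries of the groups overlap.

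**Figure D2:**
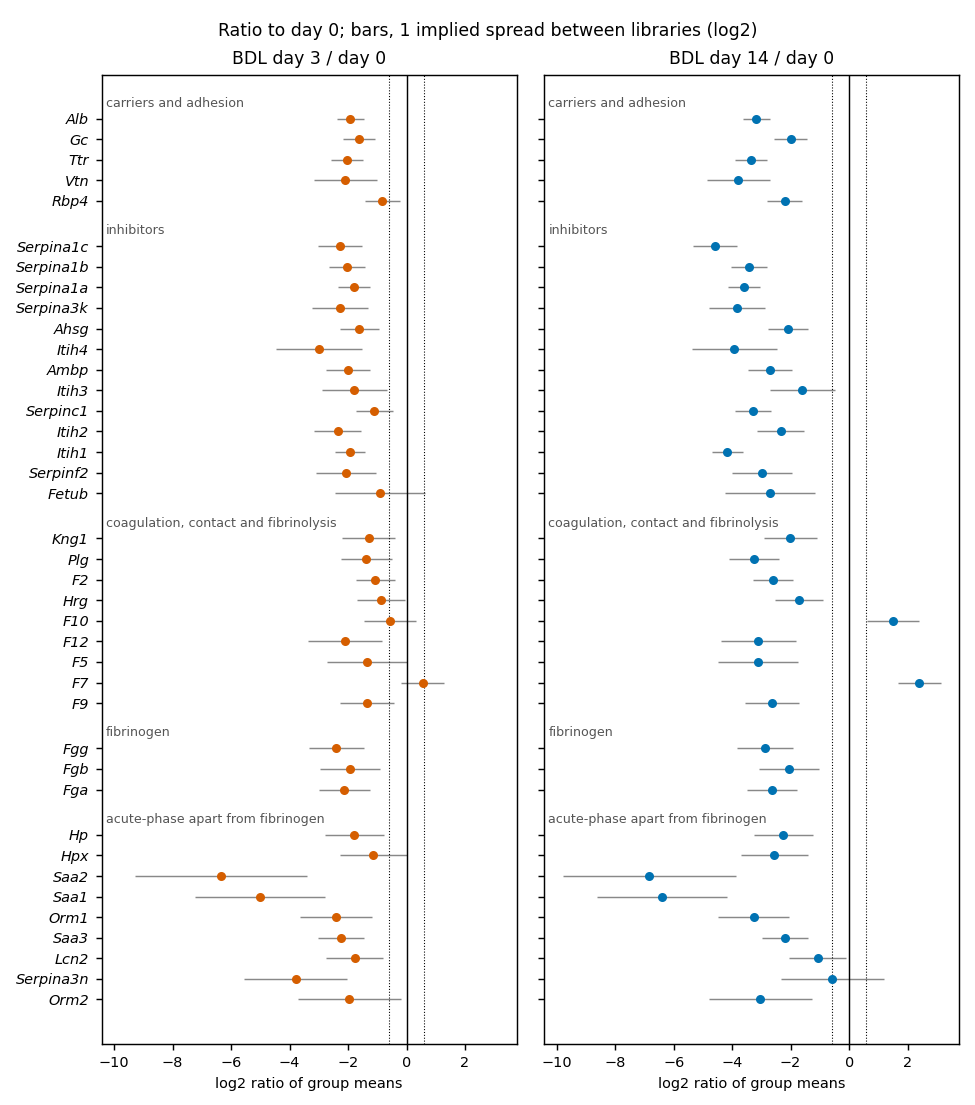
Log2 ratio of the group means of each plasma protein gene to day 0 on BDL day 3 (left) and BDL day 14 (right), with bars of 1 implied spread between libraries and dotted lines at a 1.5-fold difference. Most points lie left of the dotted lines at both times, *Saa1* and *Saa2* farthest left with the longest bars, and *F7* and *F10* lie to the right on BDL day 14.

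The carrier and adhesion genes were lower at both times in 5 of 5. *Alb* encodes albumin, the most abundant protein of plasma, and lies on chromosome 5 (GRCm38, 90460897 to 90476602, plus strand). Its group mean was 2440 on day 0, 642 on BDL day 3 and 271 on BDL day 14, which is 3.80-fold and 9.00-fold below day 0. The day 0 libraries were close together: the highest held 2580 normalized counts, 35.2% of the signal of the 3 libraries, and the other libraries averaged 2370. The implied spread of *Alb*, 0.46 on the log2 scale, was the smallest among the members. *Ttr*, the gene of the thyroid hormone carrier transthyretin, had group means of 152, 37.4 and 14.7, in the order of the times. *Vtn*, which encodes the adhesion protein vitronectin, stood at 111, 26.1 and 8.03, and 1 day 0 library held 67.7% of its day 0 signal. The vitamin D carrier *Gc* and the retinol carrier *Rbp4* differed less from day 0, with log2 ratios of -2.01 and -2.20 on BDL day 14. *Rbp4* had the smallest difference of the carriers on BDL day 3, from 47.4 to 26.6.

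The sequence just upstream of the *Alb* start is shown because it holds matches to motifs of both a liver factor and a C/EBP factor. It covers chr5:90460620-90460869 of GRCm38.p6 on the plus strand, from RefSeq, and capitals mark the C/EBP-type motif TTGCNNAA, which begins 94 bases before the RefSeq start, and the HNF1 half-site GTTAAT, which begins 32 bases before it, both sought on either strand.
Alb: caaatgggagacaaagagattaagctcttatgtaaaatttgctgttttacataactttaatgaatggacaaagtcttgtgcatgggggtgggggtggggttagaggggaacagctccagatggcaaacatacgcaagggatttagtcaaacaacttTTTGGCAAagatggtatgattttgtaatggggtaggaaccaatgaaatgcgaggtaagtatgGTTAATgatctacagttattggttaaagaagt

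All 13 inhibitor genes were lower at both times. Without the highest day 0 library, 11 of the 12 in which it was placed were lower at each time, *Fetub* being within 1.5-fold on BDL day 3 (log2 ratio -0.06) and *Itih3* on BDL day 14 (-0.55). The Serpina1 genes encode forms of alpha-1-antitrypsin, an inhibitor of neutrophil elastase. *Serpina1c* went from 433 on day 0 to 88.7 on BDL day 3 and 18 on BDL day 14, a log2 ratio of -4.59 at the later time. *Serpina1a* had means of 353, 102 and 28.9, and *Serpina1b* of 372, 89.7 and 35.0. The highest day 0 library of these 3 genes held 39.8 to 45.3% of the day 0 signal, so their day 0 means did not rest on a single library. Much of their sequence is shared, however: 74.2% of the 50-base runs of the *Serpina1c* transcript, 67.4% of those of *Serpina1a* and 35.8% of those of *Serpina1b* also occur in transcripts of other genes, mostly of the same cluster. How the authors' counting divided such reads is not stated, so the levels of the 3 genes are uncertain one by one.

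*Serpinc1* encodes antithrombin, the inhibitor of thrombin and factor Xa, and its mean was 45.5 on day 0, 21.2 on BDL day 3 and 4.64 on BDL day 14. *Serpinf2*, the gene of the plasmin inhibitor alpha-2-antiplasmin, had means of 24.5, 5.81 and 3.10. *Serpina3k*, a serpin of a multigene cluster on chromosome 12, had means of 282, 57.9 and 19.7. The inter-alpha-trypsin inhibitor heavy chains bind hyaluronan in the matrix, and *Ambp* encodes their light chain. *Itih1* was lower by 17.9-fold on BDL day 14 (26.3, 6.92 and 1.47), while *Itih2* was level between BDL day 3 and BDL day 14 (41.1, 8.04 and 8.13) and so was *Itih3* (51.2, 14.9 and 16.9). *Itih4* had means of 148, 18.6 and 9.74, but 82.9% of its day 0 signal came from 1 library and the others averaged 38.0. *Ahsg* and *Fetub* encode the fetuins, and their log2 ratios on BDL day 14 were -2.10 and -2.70. The means of *Ahsg* were 223, 73.0 and 52.2, and those of *Fetub* 12.5, 6.64 and 1.92.

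Of the 9 coagulation, contact and fibrinolysis genes, 7 were lower and 0 higher on BDL day 3, and 7 were lower and 2 higher on BDL day 14. Without the highest day 0 library, 4 of the 6 in which it was placed were lower on BDL day 3, *Kng1* (log2 ratio -0.30) and *Hrg* (-0.11) being within 1.5-fold, and 6 of 6 on BDL day 14. *F2* encodes prothrombin, and its means were 25.1 on day 0, 12.0 on BDL day 3 and 4.14 on BDL day 14. *Plg*, the gene of plasminogen, which dissolves fibrin once activated, had means of 52.8, 20.4 and 5.51. *Kng1*, which encodes kininogen of the contact system, had means of 56.1, 22.9 and 13.9, with 66.5% of the day 0 signal in 1 library. The cofactor gene *F5*, the intrinsic pathway genes *F9* and *F12* and the histidine-rich glycoprotein gene *Hrg* had log2 ratios between -3.12 and -1.72 on BDL day 14. *F5*, *F9* and *F12* were low throughout, with BDL day 14 means of 0.640, 0.402 and 0.924 that lay above the lowest levels of the group (0.244, which is 4 times its lowest mean).

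*F7* and *F10* went the other way. Factor VII starts the extrinsic pathway on tissue factor, and factor X is the protease it activates. *F7* had a mean of 2.84 on day 0, 4.15 on BDL day 3 and 15.0 on BDL day 14, which is 5.28-fold above day 0. *F10* stood at 17.6, 11.9 and 49.6, a log2 ratio of -0.56 on BDL day 3 and of 1.49 on BDL day 14. In both genes the highest library belonged to BDL day 14. For *F7* it held 20.7 normalized counts, 34.5% of the signal of the 4 libraries, and the other 3 averaged 13.1. For *F10* it held 103, 51.9% of the signal, and the others averaged 31.8, still above the day 0 and BDL day 3 means. The log2 ratio to day 0 came to 3.32 implied spreads for *F7* and to 1.70 for *F10*. Of 7 macrophage markers, 1 (*Lyz2*) was higher on BDL day 14 than on day 0, against 21.2% of all kept genes, and 6 lay within 1.5-fold. The part of macrophages in the *F7* and *F10* values was not tested. The genes are neighbours on chromosome 8 (13026034 to 13035809 and 13037308 to 13056676, both plus strand), 1498 bases apart.

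The upstream sequences of *F7* and *F10* are shown because these neighbours were the only members higher on BDL day 14. They cover chr8:13025784-13026033 and chr8:13037058-13037307 of GRCm38.p6 (RefSeq, plus strand), they hold no match to the motifs searched and so no capitals, and 46.6% of their aligned positions were identical.
F7: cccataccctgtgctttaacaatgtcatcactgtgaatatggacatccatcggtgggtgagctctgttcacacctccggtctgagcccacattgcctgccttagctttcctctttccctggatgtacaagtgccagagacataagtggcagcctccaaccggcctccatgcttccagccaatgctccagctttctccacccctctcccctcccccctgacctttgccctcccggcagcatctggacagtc
F10: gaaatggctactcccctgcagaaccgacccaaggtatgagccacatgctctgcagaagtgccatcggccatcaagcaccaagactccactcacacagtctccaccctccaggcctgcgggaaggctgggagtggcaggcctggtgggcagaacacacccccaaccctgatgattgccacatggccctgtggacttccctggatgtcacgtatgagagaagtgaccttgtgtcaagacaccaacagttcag

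The fibrinogen genes *Fga*, *Fgb* and *Fgg* encode the chains of the clot protein and sit side by side on chromosome 3. *Fga* had means of 87.1, 19.9 and 14.0 in the order of the times, *Fgb* of 99.2, 26.0 and 23.9, and *Fgg* of 106, 20.1 and 14.4. All 3 were lower at both times by log2 ratios between -2.88 and -1.93, and none differed by more than 1.5-fold between BDL day 3 and BDL day 14. A single day 0 library held 65.8% of the day 0 signal of *Fga*, 70.2% of that of *Fgb* and 63.2% of that of *Fgg*.

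The serum amyloid A genes, whose products join high-density lipoprotein in inflammation, included the widest differences of the members. *Saa1* had a mean of 185 on day 0, 5.74 on BDL day 3 and 2.17 on BDL day 14. *Saa2* had means of 257, 3.16 and 2.26, so that day 0 was 81.3-fold and 114-fold higher. These day 0 means came almost wholly from 1 library each. The highest library held 551 of the *Saa1* counts, 99.1% of the day 0 signal, and the remaining libraries averaged 2.52 (2.03 to 3.00 within the rounding of the table). For *Saa2* it held 770, 99.9% of the signal, and the remaining libraries averaged between 0 and 0.76. Against those remaining libraries the BDL day 3 mean of *Saa1* was higher, by 1.19 on the log2 scale, and that of *Saa2* by at least 2.06, with no upper limit since those libraries may average 0. Whether the high library is the same for both genes cannot be told, since the table does not name it.

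*Saa3*, the family member also made in macrophages and adipose tissue, did not share that pattern on day 0. Its means were 87.8, 18.4 and 19.1, and its highest library of 104 held 39.5% of the day 0 signal, with an average of 79.7 in the others. Its log2 ratios were -2.25 on BDL day 3 and -2.20 on BDL day 14, and they were -2.11 and -2.06 without the highest library. The 3 genes lie within 42316 bases of chromosome 7 (GRCm38, 46711998 to 46754313), *Saa3* and *Saa1* on the minus strand and *Saa2* on the plus strand. Of the 50-base runs of their transcripts, 14.8% of those of *Saa1* and 9.12% of those of *Saa2* recur in other genes, mainly in each other.

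The sequences upstream of the Saa genes are shown because those of *Saa1* and *Saa2* are alike and that of *Saa3* is not. Over the full 250 bases before the start, *Saa1* and *Saa2* were 94.8% identical (251 aligned positions), and *Saa1* and *Saa3* 48.2%. The part of these sequences in the values was not tested. The stretches printed cover chr7:46742981-46743230 (minus strand), chr7:46751583-46751789 (plus strand) and chr7:46715701-46715926 (minus strand) of GRCm38.p6, from RefSeq. Capitals mark the C/EBP-type motif TTGCNNAA on either strand, which begins 182 bases before the RefSeq start in *Saa1*, 183 in *Saa2* and 99 in *Saa3*. The stretches printed for *Saa2* and *Saa3* stop 43 and 24 bases short of that start.
Saa1: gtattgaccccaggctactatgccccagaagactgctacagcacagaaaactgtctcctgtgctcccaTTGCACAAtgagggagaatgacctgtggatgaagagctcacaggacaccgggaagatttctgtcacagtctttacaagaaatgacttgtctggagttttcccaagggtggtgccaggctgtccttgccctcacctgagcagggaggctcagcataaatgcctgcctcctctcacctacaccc
Saa2: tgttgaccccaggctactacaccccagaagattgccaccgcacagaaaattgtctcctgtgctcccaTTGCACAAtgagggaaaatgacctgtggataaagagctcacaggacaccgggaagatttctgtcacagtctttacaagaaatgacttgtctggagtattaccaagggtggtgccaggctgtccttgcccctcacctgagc
Saa3: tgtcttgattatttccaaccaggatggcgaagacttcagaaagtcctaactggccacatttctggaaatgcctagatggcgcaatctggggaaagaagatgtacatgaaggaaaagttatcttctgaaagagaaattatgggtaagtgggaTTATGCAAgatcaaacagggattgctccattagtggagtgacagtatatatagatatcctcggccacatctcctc

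Haptoglobin and hemopexin bind free hemoglobin and heme. *Hp* had means of 540 on day 0, 157 on BDL day 3 and 113 on BDL day 14, and *Hpx* of 447, 202 and 75.9. Each had a high day 0 library, of 1250 for *Hp* (77.2% of the day 0 signal) and of 1070 for *Hpx* (79.8%). The remaining day 0 libraries averaged 185 for *Hp*, so that the log2 ratio on BDL day 3 was -0.24 against them. For *Hpx* they averaged 136, below the BDL day 3 mean, and the log2 ratio was 0.58. The orosomucoid genes *Orm1* and *Orm2*, of the alpha-1-acid glycoproteins, had means of 106, 20 and 11 and of 12.3, 3.15 and 1.5, with 84.4% and 80.3% of the day 0 signal in 1 library. Without it, their log2 ratios on BDL day 3 were -0.32 and -0.20.

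*Lcn2* and *Serpina3n* stood apart from the other acute-phase genes on BDL day 14. *Lcn2* encodes lipocalin 2, which binds bacterial siderophores, and its means were 82.1 on day 0, 24 on BDL day 3 and 39.2 on BDL day 14. Its highest day 0 library held 178, and the others averaged 34.2, which is below the BDL day 14 mean. *Serpina3n*, a serpin also made in many tissues outside the liver, had means of 71.1, 5.16 and 47.7. Its highest day 0 library of 192 held 90.0% of the day 0 signal, and the others averaged 10.7. The log2 ratio on BDL day 14 was -0.58 against the full day 0 mean and 2.16 against those other libraries. Between BDL day 3 and BDL day 14, *Serpina3n* was higher by 9.24-fold, which came to 1.82 implied spreads.

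Set side by side, the classes were alike in the number of lower genes and unlike in what lay under it. On BDL day 3, 12 of 12 acute-phase genes were lower (median log2 ratio -2.19) and 25 of 27 constitutive genes (-1.78). On BDL day 14 it was 11 of 12 (-2.60) and 25 of 27 (-2.98). The highest library could be placed on day 0 for all 12 acute-phase genes and for 22 of the 27 constitutive genes. It held over 50% of the day 0 signal in 11 of the 12 and in 13 of the 22, with medians of 78.5% and 52.7%. The same could be placed for 10.5% of all kept genes, of which 63.5% passed 50%, with a median of 54.4%. Placement itself favours genes with 1 very high library or with much higher day 0 levels, so these shares describe the placed genes only. The median implied spread was 1.08 in the acute-phase class, 0.81 in the constitutive class and 0.58 over all kept genes, on the log2 scale.

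**Figure D3:**
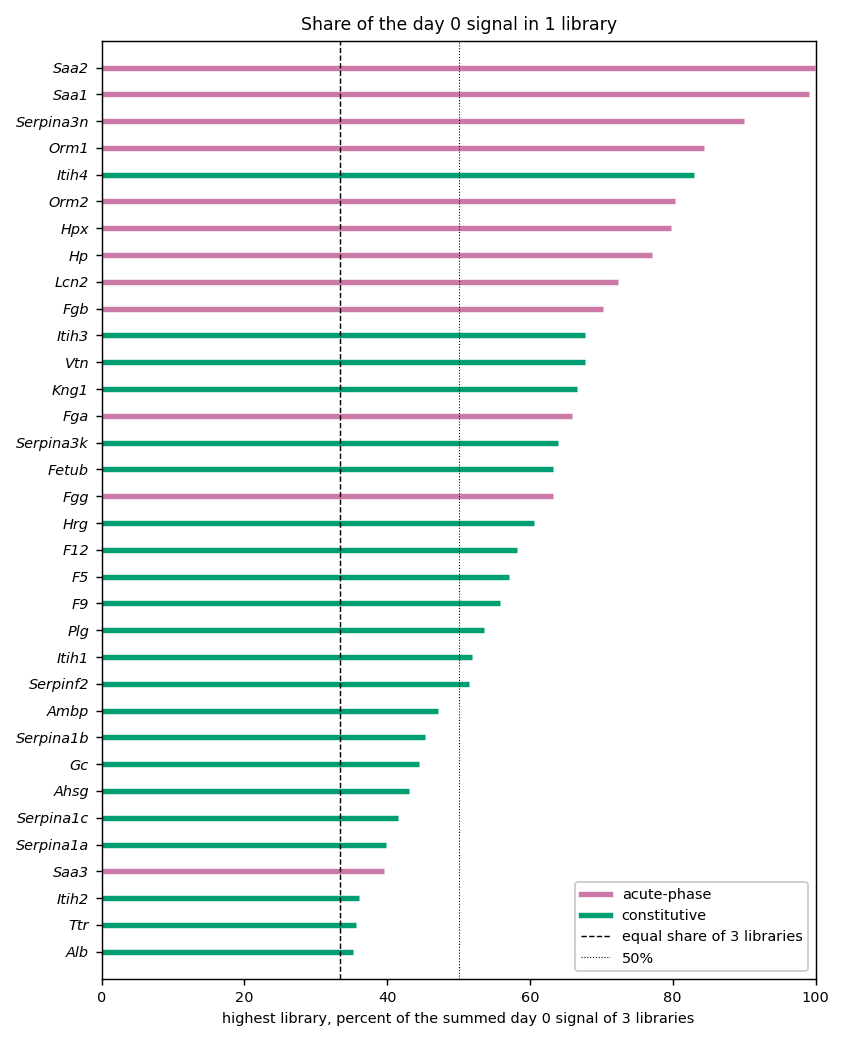
Share of the summed day 0 signal held by the highest library (x axis, percent) for the 34 plasma protein genes whose highest library was placed on day 0, acute-phase genes in pink and constitutive genes in green. *Saa2*, *Saa1* and *Serpina3n* stand at the top at 90.0% or more, *Alb*, *Ttr* and *Itih2* at the bottom close to the dashed line of equal libraries, and *Saa3* is the only acute-phase gene below the dotted line at 50%.

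Without the highest library of each gene where it could be placed, 27 of the 39 members were lower on BDL day 3 and 32 on BDL day 14, against 37 and 36 with it. For 34 of the 39 that library was on day 0, so its removal lowers the day 0 mean by construction while the BDL groups keep all their libraries. No share of all kept genes was computed under this removal. The median log2 ratio of the 12 acute-phase genes was -0.41 on BDL day 3 and -0.86 on BDL day 14. Over the 22 constitutive genes whose highest library was placed on day 0 it was -1.39 and -2.46. That median leaves out *F2*, *F7*, *F10*, *Serpinc1* and *Rbp4*, so the 2 classes are not covered alike. With all libraries, the log2 ratios of those genes lay between -1.10 and 0.55 on BDL day 3 and between -3.29 and 2.40 on BDL day 14. Without the highest day 0 library, 5 acute-phase genes were lower on BDL day 3 (*Saa3*, *Serpina3n* and the fibrinogen chains) and 2 were higher (*Saa1* and *Saa2*). The libraries could not be matched between genes, so no fit without a given mouse was possible.

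From BDL day 3 to BDL day 14, 25 of the 39 members were lower and 4 were higher, against 19.7% and 21.2% of all kept genes. The constitutive genes held 21 of the lower ones, with a median log2 ratio of -1.28 in their class. Among the acute-phase genes 4 were lower (*Saa1*, *Orm1*, *Orm2* and *Hpx*), 2 were higher (*Serpina3n* and *Lcn2*) and 6 lay within 1.5-fold, and the median was -0.48. *F7* and *F10* were the other higher genes, by 3.61-fold and 4.17-fold. *Serpina1c* and *Itih1* were the farthest below BDL day 3, with log2 ratios of -2.30 and -2.23. With more than 2 implied spreads as a further condition, 10 members were lower and 2 higher (*F7* and *F10*), against 7.21% and 7.6% of all kept genes, and none of those 12 was an acute-phase gene.

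As a pool, the members' means summed to 7377 normalized counts on day 0, 1919 on BDL day 3 and 1037 on BDL day 14, or 0.799%, 0.227% and 0.141% of the summed signal of all genes. Acute-phase genes held 28.2%, 26.3% and 35.1% of that pool, and *Alb* alone 33.1%, 33.5% and 26.1%. Levels per kb between genes depend on the length used, here the union of all annotated exons. For some members that union is far longer than the longest coding transcript: 2478 against 609 bases for *Saa1*, 2518 against 652 for *Saa2* and 2623 against 915 for *Lcn2*. The ranks below therefore hold for this length only. Divided by it, *Alb* was the highest member at all 3 times, at 1042, 274 and 116 normalized counts per kb. *Hp*, *Serpina1c*, *Hpx* and *Serpina1a* followed on day 0. On BDL day 14 *Hp*, *Hpx*, *Gc*, *Ahsg*, *Serpina3n* and *F10* followed, so that *F10* stood at rank 7 of the members after rank 32 on day 0. Within families, the per-kb level of *Serpina3n* over that of *Serpina3k* was 0.251 on day 0, 0.0888 on BDL day 3 and 2.41 on BDL day 14. *Serpina1c* over *Serpina1b* was 2.07, 1.75 and 0.913. *Fgg* over *Fgb* was 1.95, 1.41 and 1.10, and *Fga* over *Fgb* 1.11, 0.969 and 0.741.

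Members that sit together in the genome mostly had the same sign. Since 36 of all 39 members were lower at both times, this is not particular to neighbours. Of the 39, 22 lie in 8 groups of neighbours no more than 100000 bases apart. All members of the *Fgg*, *Fga* and *Fgb* group, the *Ahsg*, *Fetub*, *Hrg* and *Kng1* group, the *Itih4*, *Itih3* and *Itih1* group and the *Orm1* and *Orm2* group were lower at both times. *Serpina3n* and *Serpina3k*, 60584 bases apart on chromosome 12, differed on BDL day 14, with log2 ratios of -0.58 and -3.84. Other genes overlap *Ahsg*, *Fgg*, *F5*, *Plg*, *Serpina1b*, *Serpina1c*, *Serpina3k* and *Serpinc1*, some on the opposite strand. The counting is not stated to use strand, so reads of such partners cannot be told apart.

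RefSeq promoter windows, from 250 bases before the start to 50 after it, matched 33 of the 39 members. The names without a match were *Ttr*, *Orm1*, *Hp*, *Kng1*, *Plg* and *Serpina3k*. The C/EBP-type motif TTGCNNAA was found on either strand in 17 of the 33, in 8 of the 10 acute-phase and 9 of the 23 constitutive genes, against 10.8% of all 32851 promoters. The HNF1 half-site GTTAAT was found in 10 (7.10% of all promoters), the STAT3-type TTCNNNGAA in 5 (8.30%), an NF-kB-type motif of 10 letters in 2 (1.63%) and the HNF4-type CAAAGTCCA in 0 (0.475%). These are matches of letters in a window, and no binding was measured in these cells.

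Other genes of the same systems, on lists drawn up by function with earlier results of these data known, had the same direction in most cases. Of all kept genes, 29.2% were lower and 19.2% higher on BDL day 3, and 28.8% and 21.2% on BDL day 14. Of 9 further acute-phase genes, 7 were lower and 1 higher on BDL day 3. The pentraxin genes *Crp* and *Apcs* were among the lower ones (21.7, 2.99 and 2.53, and 14.1, 2.08 and 1.57), and on BDL day 14 *Saa4* (log2 ratio -4.49) and *Fgl1* (-3.36) were the lowest. *Hamp*, the gene of the iron hormone hepcidin, was the higher one, with means of 1.86, 6.87 and 3.73. Of 15 further inhibitors, 14 were lower at both times. *Serpina1e*, another gene of the Serpina1 cluster, had means of 284, 52.5 and 2.09. *Serpinf1* and *Serping1* were the farthest below day 0 on BDL day 3 (log2 ratios of -3.79 and -3.26). Of 5 further carriers, 3 and then 4 were lower, *Afm* the farthest (9.66, 1.11 and 0.415).

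Among 17 further coagulation and fibrinolysis genes, 11 were lower and 2 higher on BDL day 3, and 10 and 2 on BDL day 14. The shares of all kept genes were 29.2% and 19.2%, and then 28.8% and 21.2%. The liver-derived factors *F13b* and *Klkb1* were far below day 0, *Klkb1* with means of 8.99, 3.50 and 0.409. *F13a1*, the factor XIII subunit of macrophages and platelets, had means of 10.0, 23.5 and 334, a log2 ratio of 5.06 on BDL day 14. *Plaur*, the urokinase receptor, had means of 8.80, 37.8 and 54.2. *F8*, a factor made by endothelial cells, was low only on BDL day 3, with means of 32.9, 3.62 and 40.8. The acute-phase signalling genes had no common direction: of 15, 8 were lower and 2 higher on BDL day 3 and 4 were lower and 4 higher on BDL day 14. *Socs3*, a STAT3 target that inhibits the same pathway, had means of 39.4, 23.3 and 87.0, and *Il6* of 3.81, 2.96 and 0.266. *Nfkbiz*, an NF-kB cofactor, stood at 42.4, 7.54 and 9.39.

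Marker genes of other cells that a liver sort can hold also differed between the groups. Their counts stand beside 29.2% of all kept genes lower and 19.2% higher on BDL day 3, and 28.8% and 21.2% on BDL day 14. The 16 hepatocyte markers that are not secreted, enzymes and receptors such as *Pck1* and *Otc*, were lower in 13 on BDL day 3 (median log2 ratio -1.51) and in 16 on BDL day 14 (-2.74), and their summed means were 832, 300.0 and 148. *Otc* had means of 13.1, 2.71 and 1.18. Of 11 neutrophil markers 7 and then 9 were lower (medians -0.64 and -1.97), with summed means of 590, 289 and 186, and *Ly6g*, the neutrophil surface antigen, stood at 0.563, 0.419 and 0.061, the last being the lowest mean of its group. Cholangiocyte markers were low on day 0 already, *Prom1* itself at 6.66, 0.956 and 1.76, and 6 of 6 and then 5 of 6 were lower (summed means 65.3, 28.0 and 37.5). All 6 stellate and mural markers were lower at both times (medians -5.10 and -3.36, summed means 605, 15.4 and 61.3). Of the 7 macrophage markers, 5 were higher on BDL day 3 and 1 on BDL day 14, with 0 lower at either time (medians 0.76 and 0.35). Their summed means were 4967, 8987 and 13990, of which *Lyz2* alone made 2280, 4560 and 11200. The 5 Kupffer cell markers were higher in 4 on BDL day 3 and lower in 5 on BDL day 14 (medians 1.11 and -2.30, summed means 9212, 20869 and 1278), and the 5 endothelial markers had medians of -1.17 and 0.40 (675, 262 and 782). At every time the summed macrophage markers were far above the summed hepatocyte markers that are not secreted, in a sort that the labels describe as Prom1+ progenitor cells and their progeny. These sums cover lists of 7 and 16 genes and are not divided by length, so they do not rank the cell types. The plasma protein members themselves summed to 7377, 1919 and 1037, above the macrophage markers on day 0 and below them after BDL. The part of any of these cells in the plasma protein values was not tested.

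**Figure D4:**
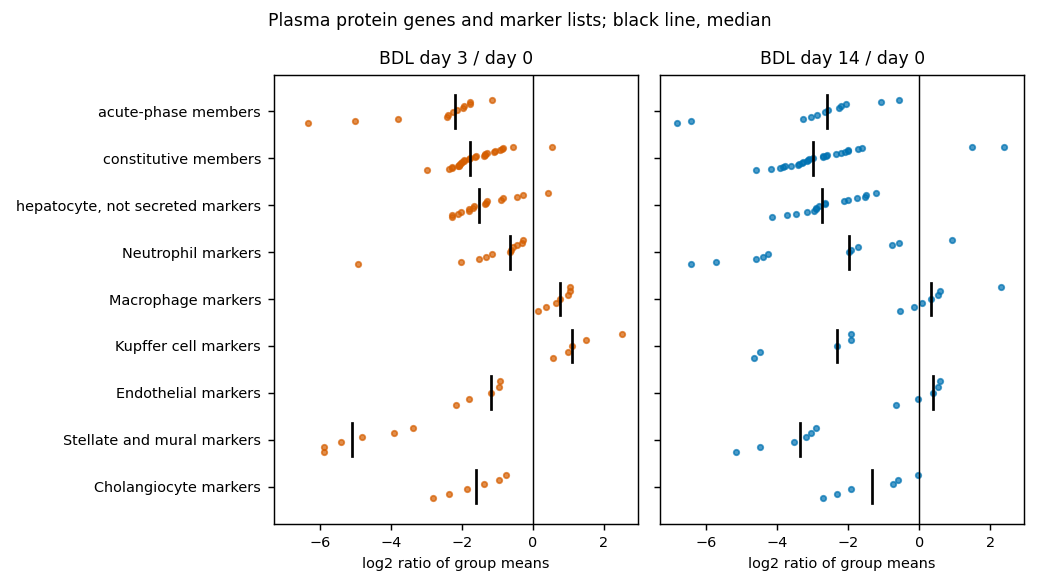
Log2 ratio of the group means to day 0 on BDL day 3 (left) and BDL day 14 (right) for each gene of the acute-phase and constitutive plasma protein classes and of 7 marker lists, with a black line at the median of each list. The constitutive genes (medians -1.78 and -2.98) and the hepatocyte markers that are not secreted (-1.51 and -2.74) lie in the same range at both times, and *F7* and *F10* are the points to the right among the constitutive genes on BDL day 14.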

How the data were processed

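FACS-sorted GFP(+) cells were profiled by mRNA sequencing (TruSeq mRNA, NextSeq). After quality trimming, the authors aligned reads to mm10 using STAR (2.6.1d per the submitters' processing notes, which the methods section gives as an earlier release), counted them on GENCODE genes and applied upper quartile normalization in Partek Flow. The deposited table holds signal values: the authors' mean of each group, the mean, geometric mean and sum over 10 libraries, and the highest library. Its 24 columns of the authors' own comparisons (p-values, FDR, ratios, fold changes and limits) were not used, and 0 columns hold single named libraries.

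Group sizes of 3, 3 and 4 gave back the authors' overall mean within 0.469% for 99% of genes. Genes summing to at least 10 were kept. A gene was called at a ratio above 1.5-fold, the fold threshold in the study's methods. The floor was 4 times the lowest mean of a group, and no member lay there. The steps, in Python 3.11.15 with pandas 2.3.3 and numpy 2.4.6, were checked on simulated data. Coordinates of all members equalled GENCODE M21 (GRCm38), which also gave exonic lengths (union of exons) and shared 50-base runs. Every member is named by rule. Of the other lists the rule names the genes with the widest ratios and those against the direction of their list, and further genes such as *Lyz2*, *Socs3* and *F8* are given for their role. A result for 1 gene of these lists is not reported here. The members and lists were chosen with earlier results of these data known.

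Alternative settings were the absence of a filter, a minimum mean of 10, a pseudocount of 1, folds above 2 or 4, median-ratio scaling, quantile normalization, a lower floor, other class borders, shares per length, leaving out the highest library and, added after the data were seen, a minimum of 2 implied spreads. Replicates are separate labelled samples. Depth per library is unknown.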

Additional observations from a re-analysis of the deposited data

How the results depend on the processing

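With the highest library of each gene left out where it could be placed, 27 members were lower and 2 higher on BDL day 3 and 32 lower and 4 higher on BDL day 14, and the acute-phase median log2 ratio was -0.41 on BDL day 3 and -0.86 on BDL day 14. The sign turned on BDL day 3 for *Saa1* (1.19), *Saa2* (3.72) and *Hpx* (0.58), and on BDL day 14 for *Saa2* (3.24), *Lcn2* (0.20) and *Serpina3n* (2.16), the last from a ratio within 1.5-fold. The *Saa2* values use a remaining mean that may be 0, and only their lower bounds of 2.06 and 1.57 are supported. These values rest on fewer libraries, and leaving out the highest one lowers the mean of its group by construction. No share of all kept genes was computed for this setting. A fold above 4 left 17 members lower on BDL day 3 and 1 higher on BDL day 14, and 3 lower and 2 higher between BDL day 3 and BDL day 14. On BDL day 14, the members lower by more than 1.5-fold but not by 4-fold were *Lcn2*, *Hrg* and *Itih3* (log2 ratios of -1.07, -1.72 and -1.60). No share of all kept genes was computed at that fold, for a mean of at least 10 or after quantile normalization. A mean of at least 10 left 1 member higher on BDL day 14, since *F7* was then not kept, and quantile normalization gave 1 higher on BDL day 3 (*F7*), the cause of which was not tested. The condition of more than 2 implied spreads, added after the data were seen, left 19 members lower on BDL day 3, 1 higher on BDL day 14, and 10 lower and 2 higher between BDL day 3 and BDL day 14. Without the filter the median of the megakaryocyte and platelet markers on BDL day 14 was -0.71, against 1.42 over the 3 markers kept. Median-ratio scaling moved the groups by at most 0.03 on the log2 scale. Of the counts over all members and the medians under an alternative, 139 kept their direction and size and 14 did not. Of the counts within classes, single genes, shares and lists, 773 did, 44 moved and 6 that were beyond 1.5-fold turned sign. Many of these results could not change. The lower floor and the absence of a filter left the members' values as they were, and a fold threshold does not enter a median. The totals are therefore no measure of robustness.

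No paired analysis was possible because the table holds no values of single libraries, and for the same reason no replicate was left out in turn. Without library depths and values per mouse, every comparison is limited to group means. The differing mix of sexes, the age at collection and the time since tamoxifen cannot be told apart from the time after BDL. Without a sham group at the later times, neither can the operation itself.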

Other observations

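Receptors and factors of the acute-phase pathway had their own patterns. *Il6st*, the shared receptor chain gp130, had group means of 157 on day 0, 57.0 on BDL day 3 and 262 on BDL day 14, and the oncostatin M receptor gene *Osmr* of 11.5, 2.12 and 8.70. Its ligand gene *Osm* stood at 8.19, 2.76 and 15.9. *Il6ra* had log2 ratios to day 0 of 0.59 on BDL day 3 and 0.56 on BDL day 14, and *Stat3* of 0.42 and 0.74. *Cebpa*, a C/EBP gene of both hepatocytes and myeloid cells, had means of 108, 163 and 137.

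*Proz*, the gene of protein Z, is the listed gene nearest to *F10* on chromosome 8 apart from *F7*. Its means were 4.32, 2.42 and 0.760, lower at both times, while *F7* and *F10* were higher on BDL day 14. *Proz* was singled out after its values were seen. *Pf4*, a platelet and macrophage chemokine gene, had means of 37.2, 82.7 and 221. The carrier gene *Trf*, which encodes transferrin, lay within 1.5-fold of day 0 at both times, with means of 804, 1130 and 939, and so did *Lbp*, which encodes the lipopolysaccharide-binding protein (31.6, 30.3 and 33.1).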
